A study of Trametes coccinea with 18 samples.

Results

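The white-rot basidiomycete Pycnoporus coccineus CIRM-BRFM 310 (Pycco 310) was grown in liquid culture for 3 days. Of its 12690 gene models, 58 whose transcript level was highest on aspen wood by a set margin are described here. A level here is the mean over the 3 libraries of a carbon source of log2(1 + normalized count), where the normalized count is the raw count divided by a median-of-ratios size factor computed over all 18 libraries. The 58 were selected on these same levels: a gene had to reach 6 on aspen and to lie at least 1 above its level on each of the other 5 carbon sources. A further 7 gene models that met both limits were set aside from the start and are not described. Since the choice used every comparison of aspen with another carbon source, those differences are given as a description with no test, and tests are restricted to the other 5 carbon sources among themselves, which the choice bounds from above only.

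RNA came from mycelium of 1 strain, with 3 independent cultures for each of aspen, pine, wheat straw, Avicel, xylan-galactomannan and maltose. By the labels the maltose medium held 20 g/l of maltose, and every other medium held 15 g/l of its substrate together with 2.5 g/l of maltose. The paper's methods instead describe each substrate as the sole carbon source. Library totals lay between 26370228 and 42190522 counts. The growth description of the third xylan-galactomannan library names wheat straw although its title and agent name xylan-galactomannan. Over all genes it correlated on average at r = 0.981 with the other xylan-galactomannan libraries and at r = 0.975 with the wheat straw libraries. Without it the limits are missed by 1390470, 1419800, 1437681 and 1440840 among the 58, the log2 fold changes of the 58 on xylan-galactomannan over maltose moved by at most 0.445, the call of 1466320 was lost and 1440840 was called as well.

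Aspen is a hardwood, whose main hemicellulose is an acetylated glucuronoxylan and whose lignin carries both guaiacyl and syringyl units. Pine is a softwood with galactoglucomannan and mostly guaiacyl lignin, wheat straw is a grass biomass rich in arabinoxylan and esterified phenolic acids, Avicel is microcrystalline cellulose and maltose is a readily assimilated sugar. White-rot fungi break lignin down outside the cell with oxidative enzymes and take up part of the released aromatic compounds, which monooxygenases, reductases and ring-opening dioxygenases of the cell convert further. Only 7 of the 58 genes have a function in the gene lists of the study, so most of the set can be described by identifier, level and position alone.

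The 58 genes covered a wide range of transcript levels on aspen, with a lowest of 6.12, a median of 11.07 and a highest of 15.95 log2. Their median level was 8.21 on pine, 8.65 on wheat straw, 7.10 on Avicel, 8.16 on xylan-galactomannan and 6.16 on maltose. Among all 9480 genes with an aspen level of at least 6, the medians of the 6 carbon sources all lay between 9.91 and 9.96. The gap between aspen and the next highest carbon source was 1.01 to 3.61 log2, with a median of 1.41, and reached 2 in 11 genes and 3 in 6 genes. Wheat straw was next highest in 23 of the genes, pine in 14, xylan-galactomannan in 13, Avicel in 6 and maltose in 2. The lowest level fell on maltose in 35 genes and on Avicel in 17. Together the 58 genes took 1.01 to 1.11% of the counts in the aspen libraries, against 0.0274 to 0.0375% in the maltose libraries. Turned to the other carbon sources, the same limits gave 211 genes for pine, 38 for wheat straw, 185 for Avicel, 180 for xylan-galactomannan and 431 for maltose.

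**Figure D1:**
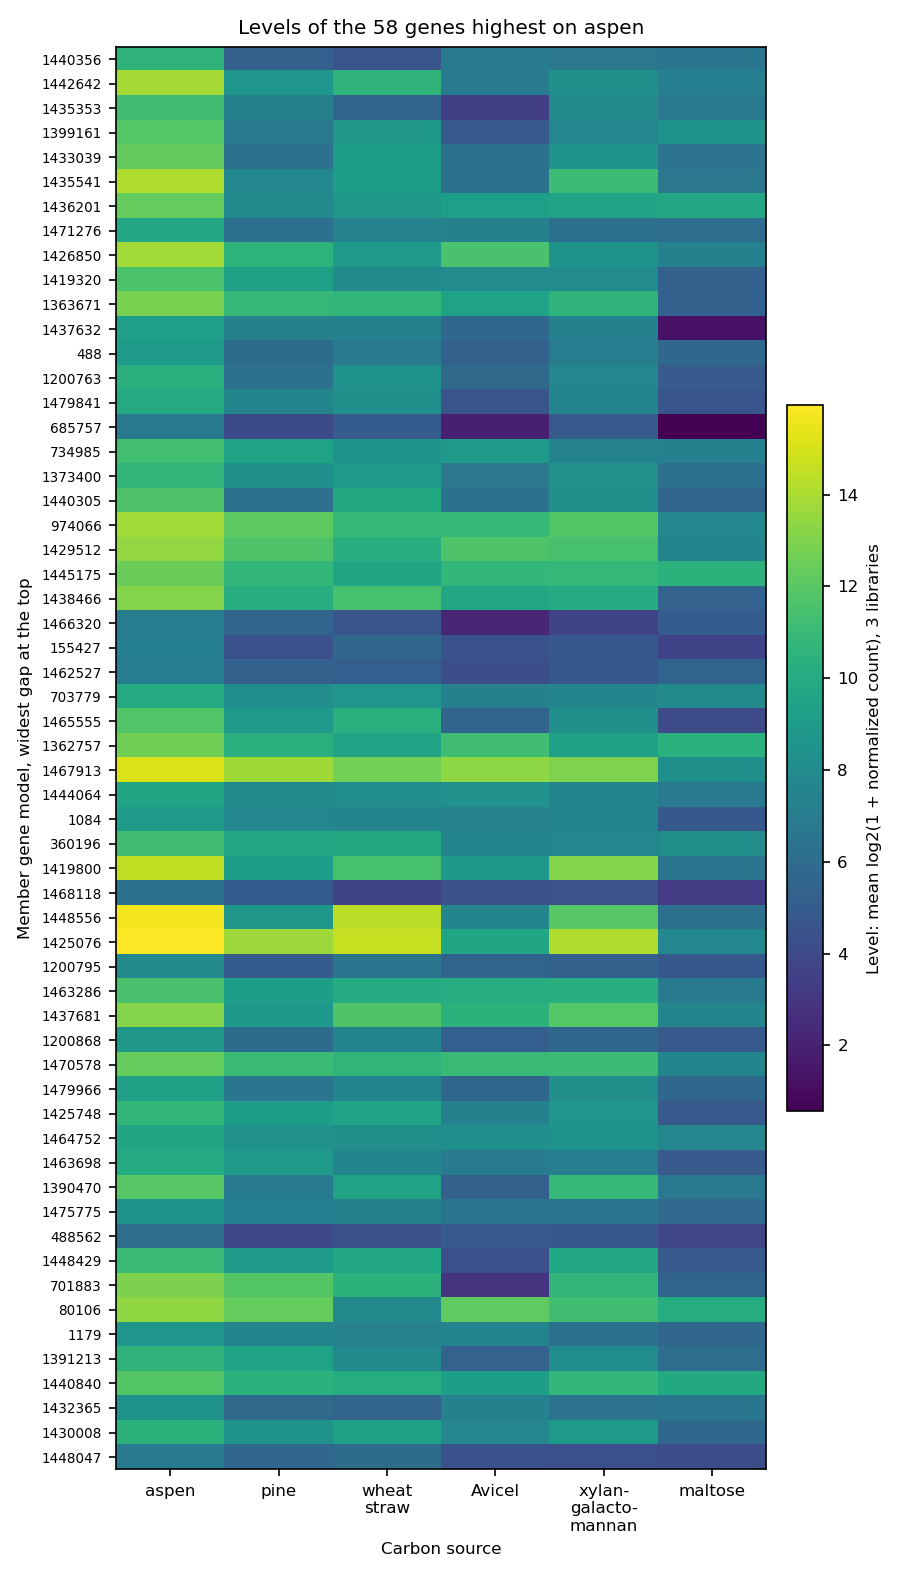
Colour shows the level (mean log2(1 + normalized count) of 3 libraries) of each of the 58 genes (rows, widest gap at the top) on the 6 carbon sources (columns). The aspen column is the brightest of each row by the choice of the genes, and the maltose column is the darkest in 35 rows and the Avicel column in 17.

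In 52 of the 58 genes all 3 aspen libraries lay above the other 15 libraries. Of all genes with an aspen level of at least 6, 2.05% did so, and since the choice used the same values nothing is read from the difference. The exceptions were 1468118, 1200868, 1463698, 1390470, 701883 and 80106, where at least 1 library of another carbon source reached into the range of the aspen libraries.

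Of the 7 genes with a listed function, 4 are described first, 1442642, 1433039, 1435541 and 1362757. Gene 1442642 carries the annotation of homogentisate 1,2-dioxygenase, which opens the aromatic ring of homogentisate and is known from the breakdown of tyrosine and phenylalanine in Aspergillus. It had 12842, 18619 and 14963 normalized counts on aspen, against 289, 234 and 804 on pine, 5683, 563 and 1138 on wheat straw, 121, 104 and 128 on Avicel, 281, 469 and 236 on xylan-galactomannan and 147, 115 and 188 on maltose. Every aspen library was above the other 15, and 1 of the 3 wheat straw libraries stood well above the other two. The gap to wheat straw was 3.31 log2, or 9.93-fold. Among the carbon sources that the choice did not rank, 1442642 was higher on wheat straw than on Avicel by 4.38 ± 0.70 log2 (SE, edgeR quasi-likelihood test, adjusted p = 0.000152) and than on maltose by 4.06 ± 0.69 (adjusted p = 0.000141). Without wheat straw replicate 1 these differences were 2.85 ± 0.43 and 2.52 ± 0.43 (adjusted p = 0.000129 and 0.000181). Avicel and maltose themselves differed by -0.32 ± 0.64 (adjusted p = 0.703).

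Gene 1433039 is annotated as a phenol 2-monooxygenase, a flavin enzyme type that adds a hydroxyl group to phenolic rings, in a group of orthologs that also holds monooxygenases of ubiquinone synthesis. Its normalized counts were 4820, 6450 and 3924 on aspen, against 90.3, 51.3 and 108 on pine, 647, 590 and 540 on wheat straw, 106, 67.0 and 69.5 on Avicel, 276, 294 and 511 on xylan-galactomannan and 71.2, 59.5 and 145 on maltose. Pine, Avicel and maltose formed a common low range, while wheat straw and xylan-galactomannan lay between it and aspen. The increase over maltose was 2.71 ± 0.33 log2 on wheat straw (SE, edgeR, adjusted p = 4.9e-06) and 2.01 ± 0.35 on xylan-galactomannan (adjusted p = 8.98e-05), whereas pine and maltose differed by -0.14 ± 0.34 (adjusted p = 0.729).

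Gene 1435541 belongs to the flavonol reductase and cinnamoyl-CoA reductase group, NAD(P)H-dependent reductases that in plants act on phenylpropanoid intermediates. It had 17154, 18620 and 17906 normalized counts on aspen, against 158, 221 and 284 on pine, 1472, 283 and 414 on wheat straw, 69.2, 98.9 and 76.3 on Avicel, 2032, 2293 and 2194 on xylan-galactomannan and 109, 90.7 and 105 on maltose. The aspen libraries differed from each other by only 0.12 log2, and xylan-galactomannan came next, 3.04 log2 lower. On xylan-galactomannan the gene was higher than on maltose by 4.45 ± 0.46 log2 (SE, edgeR, adjusted p = 2.31e-07). Its gene model overlaps a neighbouring locus with an aspen level of 3.35 by 400 bases, and reads in the shared stretch cannot be assigned to one of them with certainty.

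Gene 1362757 is annotated as a cytochrome P450, a heme monooxygenase. It differed from the preceding genes in being well transcribed on every carbon source, with 10418, 4884 and 5126 normalized counts on aspen, against 2343, 998 and 964 on pine, 1738, 397 and 595 on wheat straw, 2163, 2661 and 2327 on Avicel, 778, 756 and 463 on xylan-galactomannan and 1343, 1379 and 1336 on maltose. The first aspen library was about 1 log2 above the other two. Of the 7 tested comparisons among the other carbon sources only that of wheat straw against Avicel passed, with a log2 fold change of -1.39 ± 0.46 (SE, edgeR, adjusted p = 0.0236), and it was lost when 1 of wheat straw replicate 2, wheat straw replicate 3 or Avicel replicate 2 was left out (adjusted p up to 0.102). Without wheat straw replicate 1 it was -2.27 ± 0.41 (adjusted p = 0.000588).

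The remaining genes with a function were a methyltransferase, an esterase and a glycoside hydrolase. Gene 1399161 is annotated as a protein carboxyl methyltransferase of the farnesyl-cysteine type, which in yeast methylates the prenylated end of mating pheromone and Ras proteins, and is listed with a signal peptide. It had 2537, 5216 and 4185 normalized counts on aspen, against 103, 124 and 105 on pine, 954, 211 and 381 on wheat straw, 29.0, 17.99 and 48.3 on Avicel, 155, 348 and 162 on xylan-galactomannan and 498, 217 and 408 on maltose. It was thus low on Avicel and pine rather than on maltose, and against maltose it fell by 3.54 ± 0.53 log2 on Avicel (SE, edgeR, adjusted p = 4.7e-05) and fell by 1.76 ± 0.48 on pine (adjusted p = 0.005). Its locus overlaps that of a neighbour by 260 bases.

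Gene 1437681 is annotated as a carboxylesterase of the cholinesterase group with a signal peptide, an enzyme type that hydrolyses ester bonds. Its normalized counts were 10374, 10659 and 6703 on aspen, against 290, 695 and 431 on pine, 2346, 4078 and 4143 on wheat straw, 2537, 483 and 2180 on Avicel, 3431, 6313 and 2559 on xylan-galactomannan and 171, 144 and 269 on maltose. The aspen libraries were above all others, with xylan-galactomannan and wheat straw next. It was higher than on maltose by 4.20 ± 0.53 log2 on wheat straw (SE, edgeR, adjusted p = 6.85e-06) and by 4.41 ± 0.54 on xylan-galactomannan (adjusted p = 1.98e-06), and lower on pine than on wheat straw by 2.92 ± 0.50 (adjusted p = 0.000298). Without the third xylan-galactomannan library the gene missed the limit on the gap.

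Gene 1445175 is the only one of the 58 with a listed CAZyme family, GH16, a family of endo-acting enzymes on beta-glucans and related polysaccharides, and it carries a signal peptide. It had 5501, 4599 and 7166 normalized counts on aspen, against 2675, 2063 and 956 on pine, 658, 865 and 868 on wheat straw, 1523, 1285 and 2705 on Avicel, 1611, 2468 and 1389 on xylan-galactomannan and 1426, 1026 and 1957 on maltose. Its levels outside aspen spanned little, and none of the 4 comparisons with maltose passed the test. Wheat straw was lowest, below Avicel by 1.22 ± 0.35 log2 (SE, edgeR, adjusted p = 0.0119), although that call was lost without Avicel replicate 3 (adjusted p = 0.0702).

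A further 5 members are in the study's lists with no function. Gene 1425076 is listed with a signal peptide, for aspen, pine and wheat straw alike. The paper names it among predicted secreted proteins of unknown function that might help break down plant biomass. It had the highest level of the 58 on aspen. It had 56391, 81102 and 55598 normalized counts there, against 8413, 13865 and 20276 on pine, 26707, 23081 and 26362 on wheat straw, 720, 708 and 916 on Avicel, 13166, 24272 and 17124 on xylan-galactomannan and 217, 225 and 190 on maltose. Every library of the plant materials and of xylan-galactomannan lay above every library of Avicel and maltose. The rise over maltose was 6.08 ± 0.34 log2 on pine (SE, edgeR, adjusted p = 2.64e-09), 6.93 ± 0.35 on wheat straw (adjusted p = 9.37e-10), 6.46 ± 0.36 on xylan-galactomannan (adjusted p = 2.94e-10) and 1.92 ± 0.28 on Avicel (adjusted p = 4.18e-05).

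Gene 1448556 followed closely, with a pattern in which pine was low. It had 37386, 70132 and 53827 normalized counts on aspen, against 362, 492 and 427 on pine, 28670, 16096 and 19415 on wheat straw, 204, 142 and 269 on Avicel, 2986, 4864 and 4550 on xylan-galactomannan and 75.6, 52.2 and 109 on maltose. Aspen and wheat straw were thus far above pine, and on pine against wheat straw it fell by 5.67 ± 0.38 log2 (SE, edgeR, adjusted p = 1.84e-07), the deepest decrease among the 58. Its rise on wheat straw over maltose, 8.10 ± 0.43 log2 (adjusted p = 1.5e-09), was the steepest of that comparison among the 58.

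Gene 1419800, a short model of 411 bases listed with a signal peptide, had 22139, 22879 and 23908 normalized counts on aspen. On xylan-galactomannan it had 6853, 21803 and 5021, so that the second library there nearly reached aspen, and on the other carbon sources it had at most 3050. Its gap to xylan-galactomannan was 1.34 log2, and it too missed that limit without the third xylan-galactomannan library. Its rise on xylan-galactomannan over maltose was 6.84 ± 0.75 log2 (SE, edgeR, adjusted p = 4.91e-07).

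Gene 1390470 had 3858, 5510 and 3118 normalized counts on aspen and 1467, 3175 and 1260 on xylan-galactomannan, so that the groups overlapped, and it missed a limit without the third xylan-galactomannan library or without aspen replicate 2. It had 56.3, 21.3 and 46.4 on Avicel, against 102, 108 and 107 on maltose, a log2 fold change of -1.33 ± 0.40 (SE, edgeR, adjusted p = 0.0111) that was lost without Avicel replicate 2 (adjusted p = 0.0523). Gene 974066 had 17403, 13874 and 13250 on aspen and had at least 928 in every library other than those of maltose, where it had 234, 284 and 139.

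**Figure D2:**
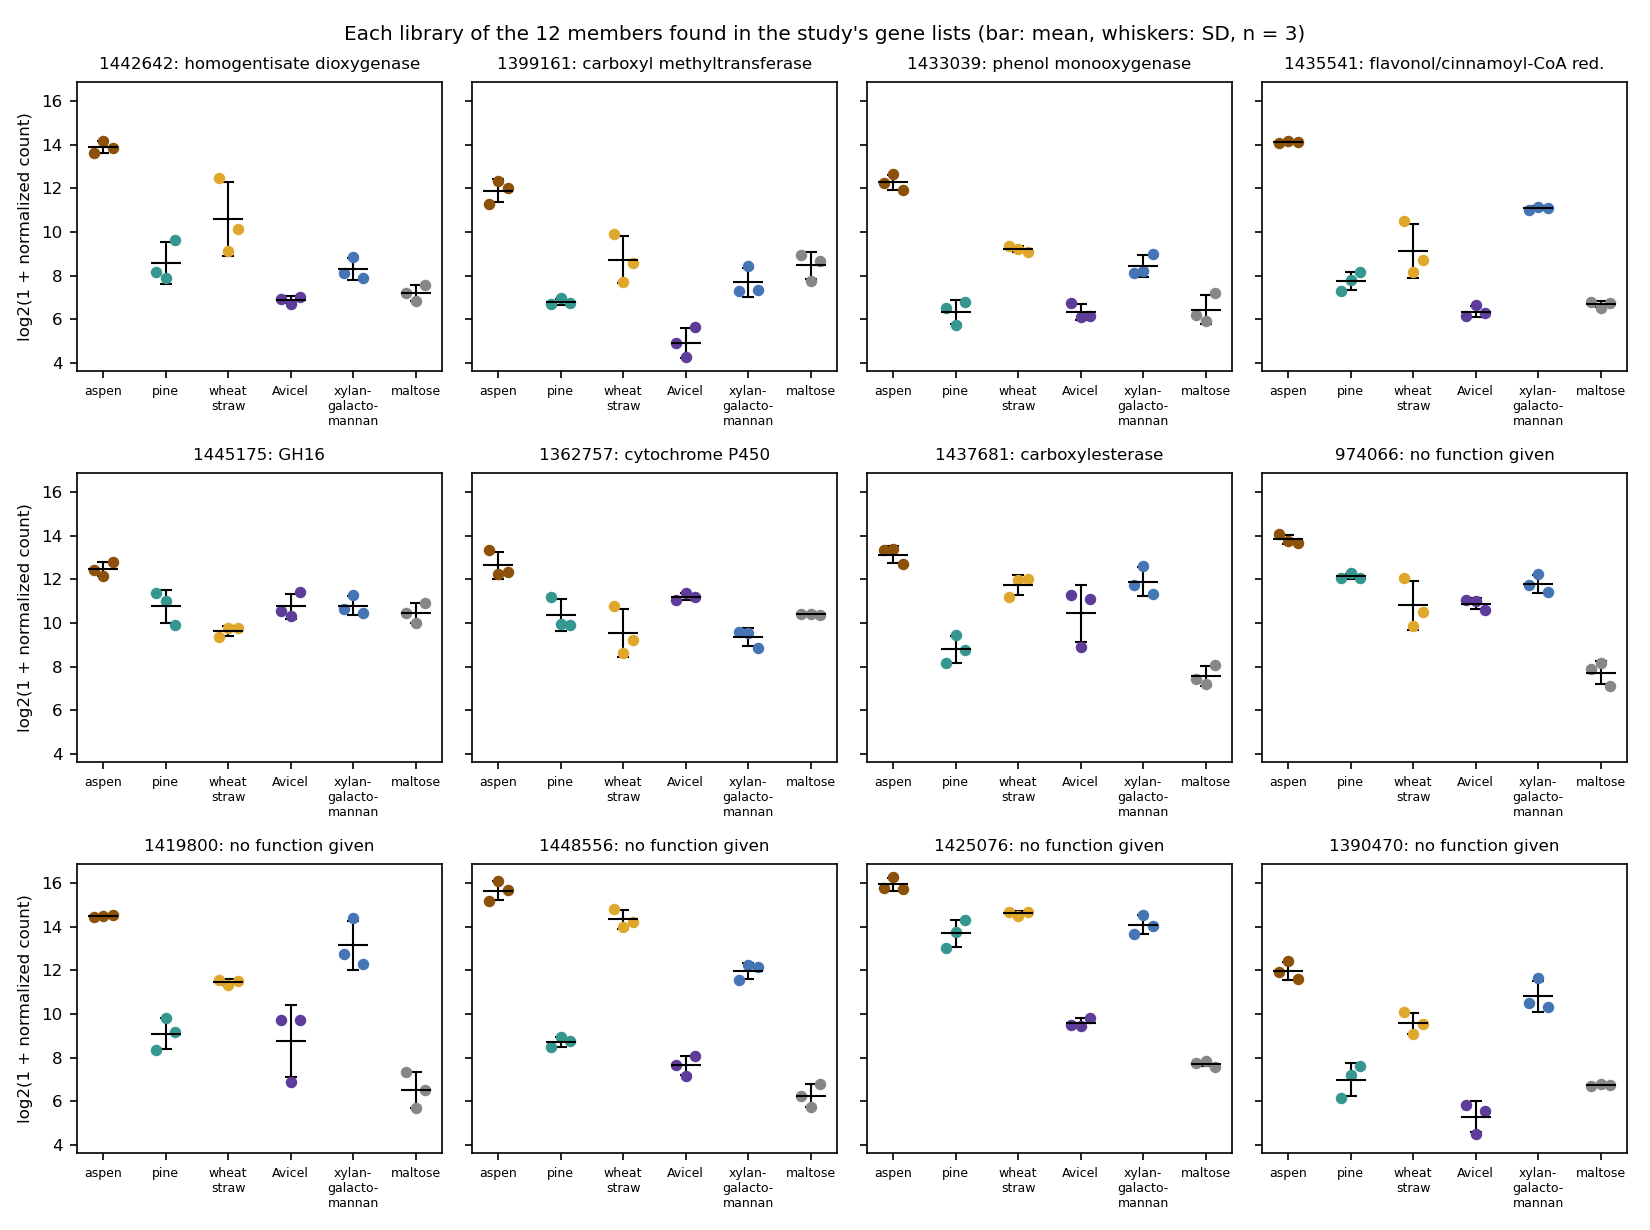
Each panel shows 1 of the 12 members found in the study's gene lists, with log2(1 + normalized count) on the vertical axis and the 6 carbon sources on the horizontal axis. Points are libraries, bars are means and whiskers are SD (n = 3), and the panels differ in which carbon source comes next to aspen: wheat straw for 1442642, xylan-galactomannan for 1435541 and Avicel for 1362757.

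The widest gap of all belonged to a gene outside the study's lists, which were the source of functions used here. Gene 1440356 had 2013, 1346 and 1311 normalized counts on aspen, against 23.6, 23.7 and 95.2 on pine, 30.1, 19.8 and 21.6 on wheat straw, 156, 116 and 105 on Avicel, 106, 127 and 75.0 on xylan-galactomannan and 125, 85.5 and 85.1 on maltose. The other plant materials gave its lowest levels, and the nearest carbon source, Avicel, was 3.61 log2 or 12.2-fold lower than aspen. It was lower on wheat straw than on maltose by 2.02 ± 0.42 log2 (SE, edgeR, adjusted p = 0.000955) and than on Avicel by 2.40 ± 0.42 (adjusted p = 0.00036). The locus overlaps an almost silent neighbour by 209 bases.

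Gene 1436201 shared the feature that maltose ranked above the other plant materials. It had 5320, 7125 and 3483 normalized counts on aspen, against 278, 267 and 190 on pine, 453, 408 and 413 on wheat straw, 600, 628 and 597 on Avicel, 738, 820 and 664 on xylan-galactomannan and 1011, 971 and 637 on maltose. Pine was below maltose by 1.82 ± 0.25 log2 (SE, edgeR, adjusted p = 1.19e-05). The decrease on wheat straw, 1.02 ± 0.24 (adjusted p = 0.00238), stood just past the limit of 1 and was lost with a replicate block or without any 1 of wheat straw replicates 2 and 3 and maltose replicates 1 and 2, where its size was as low as 0.896.

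Gene 1435353 was lowest on Avicel. It had 2317, 2851 and 2027 normalized counts on aspen, against 89.2, 184 and 206 on pine, 27.1, 60.8 and 56.4 on wheat straw, 13.7, 10.6 and 5.79 on Avicel, 230, 288 and 222 on xylan-galactomannan and 121, 118 and 85.1 on maltose. On Avicel against maltose it fell by 3.37 ± 0.40 log2 (SE, edgeR, adjusted p = 4.9e-06), and the gene was 3.92 ± 0.40 higher on pine than on Avicel (adjusted p = 7.2e-07).

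Others of this group varied less or ran along with different carbon sources. Gene 1471276 had 767, 1060 and 888 normalized counts on aspen and between 52.3 and 199.9 elsewhere. Gene 1426850 had 19073, 7974 and 20995 on aspen, with Avicel next at 2566, 2691 and 3653 and maltose lowest at 175, 124 and 180. The second aspen library of 1426850 was more than 1 log2 below the others, yet above every library of the other carbon sources. Gene 1419320 had 3022, 2898 and 3385 on aspen, against 24.5, 45.9 and 47.5 on maltose, and gene 1363671 had 9108, 5875 and 8037 on aspen, against 46.7, 20.9 and 59.4 on maltose. Gene 1437632 was nearly silent on maltose, with 0, 2 and 4 raw counts there, and its rises over maltose of 6.20 ± 0.61 log2 on pine and 4.76 ± 0.63 on Avicel (SE, edgeR, adjusted p = 4.4e-07 and 1.51e-05) therefore rest on 6 counts in the maltose group. On aspen it had 611, 761 and 505 normalized counts.

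**Figure D3:**
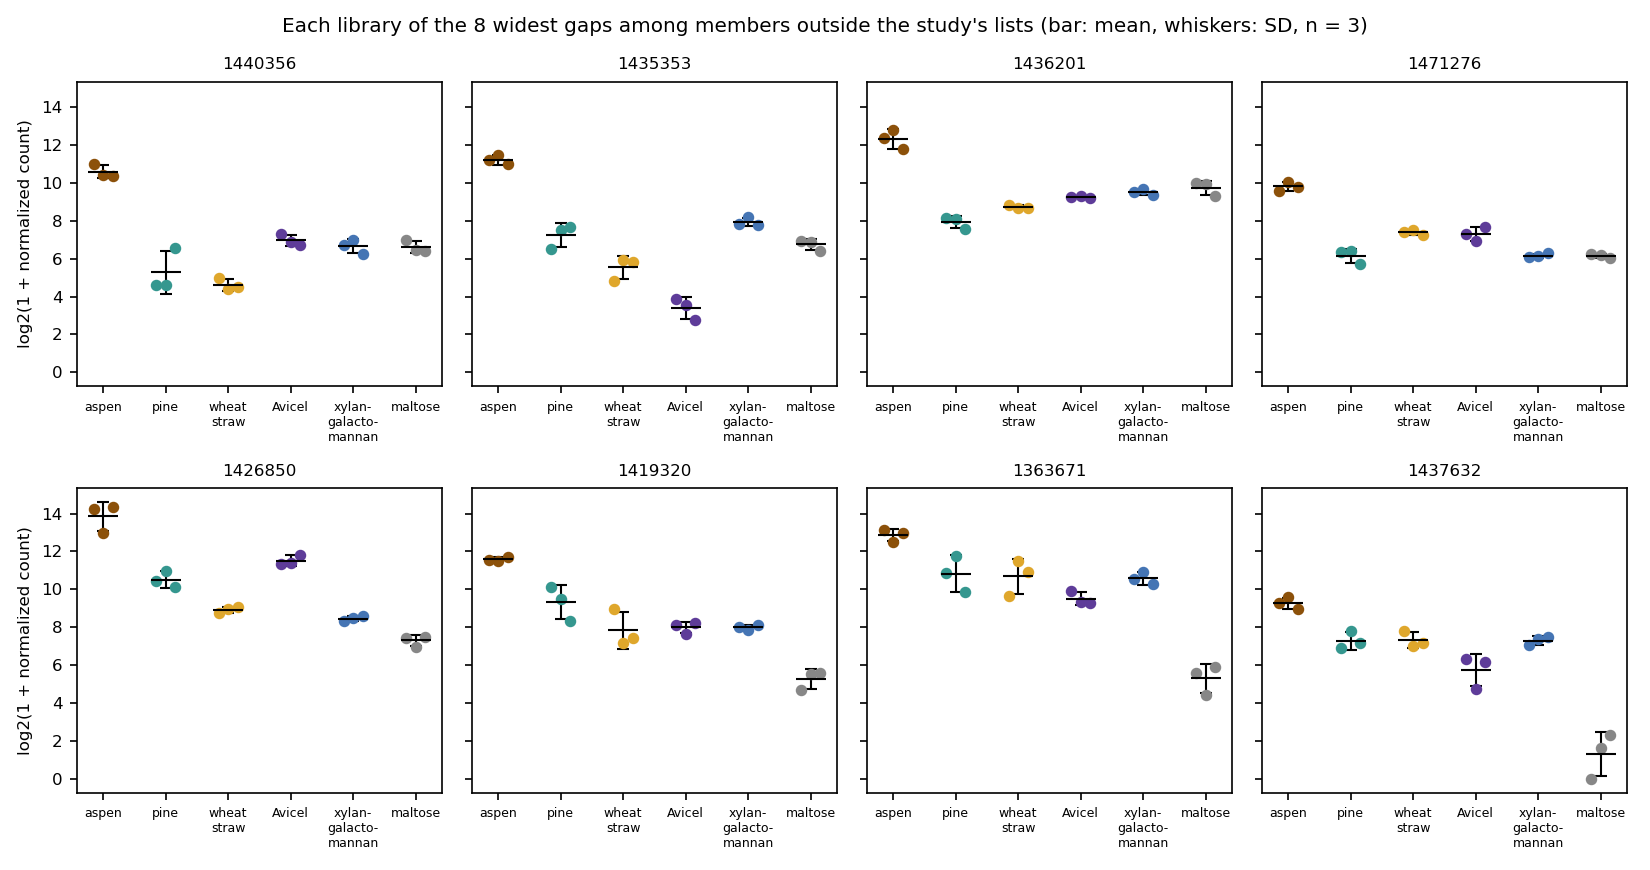
Each panel shows 1 of the 8 genes with the widest gaps among the members outside the study's lists, with log2(1 + normalized count) on the vertical axis and the 6 carbon sources on the horizontal axis (points are libraries, bars are means, whiskers are SD, n = 3). In 1440356 the wheat straw points lie below those of maltose, as do those of pine except for 1, in 1435353 the Avicel points are lowest, and in 1437632 the maltose points are lowest.

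Per kilobase of total model length, the most abundant transcript on aspen was that of 1467913, the shortest model of the 58. It had 160280 normalized counts per kilobase on aspen, 1425076 had 89394, 1419800 had 55902, 1448556 had 35500 and 974066 had 22054. Per kilobase of mappable length, the basis of the deposited RPKM, 974066 had 63701 and ranked above 1419800, and 80106 had 30705. The median of the 58 was 2025 per kilobase of total length and the lowest 124, in 1466320. Gene 1467913 had 50107, 24427 and 39426 normalized counts on aspen, and its lowest aspen library was close to the highest pine library, at 20481. On maltose it had 390, 236 and 285, and its rise over maltose was 5.13 ± 0.55 log2 on Avicel (SE, edgeR, adjusted p = 1.69e-06) and 5.58 ± 0.56 on pine (adjusted p = 5.32e-07). The longest model, 1433039, has 1998 bases.

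Some highly transcribed members had a library of another carbon source within the aspen range. Gene 80106 had 15914, 5792 and 13759 normalized counts on aspen, against 10557, 10588 and 1174 on pine, 407, 205 and 181 on wheat straw, 5958, 2844 and 5823 on Avicel, 2627, 2479 and 2091 on xylan-galactomannan and 1707, 1144 and 704 on maltose. Pine and Avicel overlapped with aspen, and wheat straw was lowest, 4.79 ± 0.70 log2 below pine (SE, edgeR, adjusted p = 0.000101). The third pine library of 80106 was far below the other pine libraries. Without any 1 of aspen replicates 1 and 3, pine replicate 3 and Avicel replicate 2 the gene missed a limit. Gene 701883 had 7643, 9638 and 6056 on aspen, against 1411, 3893 and 8316 on pine, 787, 1831 and 1955 on wheat straw, 6.44, 4.91 and 7.73 on Avicel, 1683, 1002 and 2636 on xylan-galactomannan and 36.7, 37.6 and 64.3 on maltose. It was nearly silent on cellulose, and the differences of pine and wheat straw against Avicel, 9.44 ± 0.71 and 7.89 ± 0.68 log2 (adjusted p = 5.6e-08 and 4.27e-07), were the steepest of those comparisons among the 58. Its highest pine library lay within the aspen range, and without aspen replicate 2 or pine replicate 1 the gene missed a limit. Its locus overlaps that of a neighbour with an aspen level of 5.22 by 522 bases.

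The rest of the set, none of it in the study's lists, included genes that were low on maltose and genes that varied little outside aspen. Gene 1479841 had 873.7, 1304 and 925.7 normalized counts on aspen and was low on both Avicel and maltose, with 32.2, 21.3 and 21.3 on Avicel and 16.7, 31.3 and 29.7 on maltose. Gene 1465555 had 3735, 3715 and 2986 on aspen, with wheat straw next at 1452, 1029 and 1397, against 8.90, 17.7 and 23.8 on maltose. Gene 1470578 had 5013, 5033 and 5484 on aspen, against 172, 177 and 259 on maltose, and at least 1212 in every library of the other carbon sources. In 1479841 and 1465555 pine, wheat straw and xylan-galactomannan all rose over maltose, by 3.10 ± 0.41, 3.45 ± 0.41 and 2.93 ± 0.38 log2 in 1479841 and by 4.83 ± 0.41, 6.27 ± 0.43 and 4.13 ± 0.40 in 1465555 (SE, edgeR, adjusted p at most 8.12e-06).

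Gene 1391213 ran with pine rather than wheat straw. It had 1366, 1821 and 1365 normalized counts on aspen, against 582, 651 and 953 on pine, 289, 203 and 229 on wheat straw and 53.1, 22.9 and 56.0 on Avicel, and was higher on pine than on wheat straw by 1.58 ± 0.28 log2 (SE, edgeR, adjusted p = 0.000368). Gene 1440840 had 3582, 4073 and 3349 on aspen and gave no call against maltose, where it had 964, 1147 and 778. Gene 1464752 had 944.5, 967 and 548 on aspen and between 171 and 488 in all other libraries, and was called in none of the 7 comparisons. The same was true of 1462527, a low gene with 129.7, 163 and 108.5 on aspen and between 6.54 and 50.1 elsewhere.

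The limits cut through a continuous range of values. Just inside the limit on the gap were 1448047 with 1.01, 1430008 with 1.05 and 1432365 with 1.07, and just outside it were 1474954 with 0.999, 1433413 with 0.992 and 1438138 with 0.971. Just inside the limit on the level were 488562 with 6.12, 1468118 with 6.39 and 685757 with 6.89, and just outside it were 1083622 with 5.58, 547581 with 5.53 and 1021780 with 5.44. A gap between 0.5 and 1 was found in 134 genes with an aspen level of at least 6. When each of the 18 libraries was left out in turn, 38 of the 58 genes met both limits every time. The least even of the 58 was 1468118, with 251, 38.1 and 59.3 normalized counts on aspen, where the first library alone carries the gap and without which the gene was lost.

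The tests compared the other carbon sources with each other. The aspen libraries entered the fits, through the filter, the scaling and the spread, but none of the comparisons. All 58 passed the filter on low counts. Calls come from edgeR's quasi-likelihood test over all genes and required a log2 fold change beyond 1 in either direction as well as a Benjamini-Hochberg adjusted p below 0.05. The comparisons with maltose share the maltose libraries, and those with Avicel share the Avicel libraries.

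On wheat straw, 43 of the 58 genes rose over maltose and 5 fell, beside 17.3% and 12.9% of all 11112 genes tested, and the median log2 fold change was 2.60 for the 58 and 0.02 for all genes. On pine, 34 rose over maltose and 3 fell, beside 22.1% and 18.1% of all genes, with medians of 1.59 and 0.00. In every alternative given below other than Bonferroni adjustment, 28 of these rises and 2 of these falls were called. The pine rises of 1442642, 1435541 and 1437681 and the pine fall of 1440356 were among the calls lost when 1 library was left out. On xylan-galactomannan, 33 rose and 1 fell, beside 19.4% and 14.5% of 11168 genes, with medians of 1.99 and 0.01, and without the third xylan-galactomannan library 34 rose and 0 fell. On Avicel, 24 rose and 5 fell, beside 14.1% and 15.2% of all genes, with medians of 0.81 and 0.07. A gene could enter the set only with a maltose level at least 1 below aspen, so these shares describe the 58 and are no test of them as a list.

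Of the 58 genes, 19 rose over maltose in all 4 of these comparisons, against 5.86% of the 11108 genes tested in all 4. Without the third xylan-galactomannan library the same 19 rose in all 4. The 19 were led on aspen by 1425076, 1448556, 1467913 and 1419800. For genes called in none of the 4 and for genes that fell, no share over all genes was computed, so nothing is read from those counts. A further 8 genes were called in none of the 4, the cytochrome P450 1362757 and the GH16 gene 1445175 among them. Another 9 genes fell below maltose in at least 1 of the comparisons. Besides 1440356, 1436201, 1435353, 1399161, 1390470, 701883 and 80106, these were 1432365, which fell on wheat straw but not without wheat straw replicate 2 (edgeR, adjusted p = 0.0566), and 1466320, which fell on Avicel, where it had 18 raw counts in all, and on xylan-galactomannan. The last of these calls, 1.49 ± 0.60 log2 (SE, edgeR, adjusted p = 0.0449), was lost without any 1 of xylan-galactomannan replicates 1 and 3 and maltose replicates 1 and 3 (adjusted p up to 0.140).

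Against Avicel, 32 of the 58 genes were higher on wheat straw and 7 lower, beside 13.3% and 8.75% of all genes. On pine, 24 were higher than on Avicel and 7 lower, beside 23.0% and 19.9% of all genes. The median log2 fold changes of the 58 were 1.30 on wheat straw and 0.71 on pine, and those of all genes were 0.01 and 0.03. Gene 1448429 followed 701883 on pine, with 479, 532 and 634 normalized counts against 24.1, 16.4 and 18.4 on Avicel, a difference of 4.77 ± 0.32 log2 (SE, edgeR, adjusted p = 2.18e-08). The deepest decreases on wheat straw against Avicel were those of 80106, which fell by 4.21 ± 0.69 (adjusted p = 0.000191), and of 1426850, which fell by 2.63 ± 0.33 (adjusted p = 1.45e-05). On pine against Avicel they were those of 1437681, which fell by 1.91 ± 0.48 (adjusted p = 0.00254) although its groups overlapped, and of 1432365, which fell by 1.51 ± 0.33 (adjusted p = 0.000874).

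Compared with wheat straw, 16 of the 58 genes were lower on pine, 10 were higher and 32 were called in neither direction, beside 10% (1115 of 11112) lower and 11.6% higher among all genes, and the median log2 fold change was -0.29 for the 58 and -0.02 for all genes. The 16 held 1442642, 1433039, 1435541 and 1390470, together with the methyltransferase 1399161, the esterase 1437681, 1448556 and 1419800. Gene 1440305, which is outside the study's lists, came after 1448556, with 68.8, 60.5 and 98.3 normalized counts on pine against 770, 1216 and 966 on wheat straw, a log2 fold change of -3.72 ± 0.32 (SE, edgeR, adjusted p = 1.66e-06). The groups of 1442642 and 1435541 overlapped in this comparison, and both calls were lost without wheat straw replicate 1, the highest library of either gene on wheat straw. The 10 genes that were higher on pine were led by 80106 and by 1429512, the last with a difference of 1.82 ± 0.45 (adjusted p = 0.00474) although its groups overlapped, and included the neighbours 734985 and 1426850 and the GH16 gene 1445175. The call of 1445175 was lost without pine replicate 1 (adjusted p = 0.0733), and that of 734985 without pine replicate 3 or wheat straw replicate 2, where its size was as low as 0.938.

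**Figure D4:**
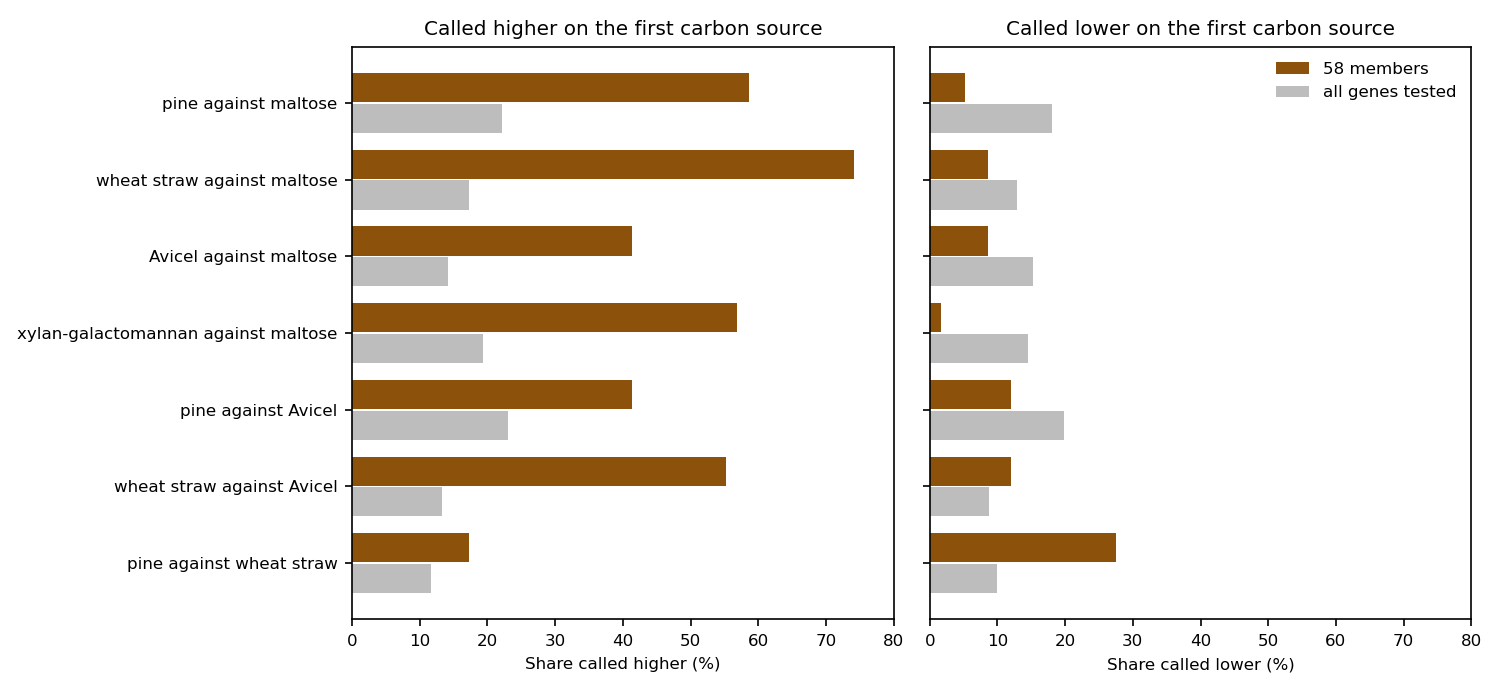
Bars show the share of the 58 genes (brown) and of all genes tested (grey) called higher (left) and lower (right) on the first-named carbon source of each comparison, with shares in percent on the horizontal axis. The share of the 58 called higher exceeds that of all genes in each of the 7 comparisons, and is nearest to it for pine against wheat straw, where 10 of the 58 were called. The share called lower exceeds that of all genes for pine against wheat straw and for wheat straw against Avicel, and is below it in the other comparisons.

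The genes were placed by the public gene table of the Pycco1 assembly, which matched all 58 by locus tag but names no scaffold, so that only order and distance are given. Within 5 gene models of each other lay 14 of the 58, in 6 groups, and 6 lay directly beside another. No such counts were made for other sets of gene models, so nothing is read from these. Genes 734985 and 1426850 overlap by 355 bases, and their aspen libraries moved together, with 2689, 1568 and 3553 normalized counts for 734985 and the second library lowest in both. Since the loci share sequence, reads of the stretch may have been counted for either or for neither, and this was not tested.

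A second group held 1200795, 1200868 and 1200763, of which the last 2 abut, with 1 gene model between the first 2. Their aspen levels were 7.92, 8.73 and 10.32, and each had wheat straw as the next highest carbon source, at 6.62, 7.48 and 8.46. All of them were also lower on pine than on wheat straw in the test, with log2 fold changes of -1.62 ± 0.43, -1.65 ± 0.47 and -2.26 ± 0.35 (SE, edgeR, adjusted p = 0.00708, 0.0115 and 0.000143), and the call of 1200868 was lost without wheat straw replicate 1 (adjusted p = 0.0597). The gene model between them, 1200778, had its highest level on aspen too, at 4.08, which is below the limit.

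In the third group, 1179 and 1084 overlap by 310 bases and had aspen levels of 8.62 and 9.07, with 488 nearby at 8.92. The 2 gene models between 488 and this pair, 1421220 and 1462498, had gaps of -0.35 and -1.17, so the stretch as a whole was not highest on aspen. The same held for the remaining groups: 1466320 and 1444064, 1438466 and 1479966, and 1440356 and 1419800 were each separated by 2 or 3 gene models with a gap of at most 0.25. In all, 15 of the 58 loci overlap a neighbouring locus, a share that was not computed for all loci.

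**Figure D5:**
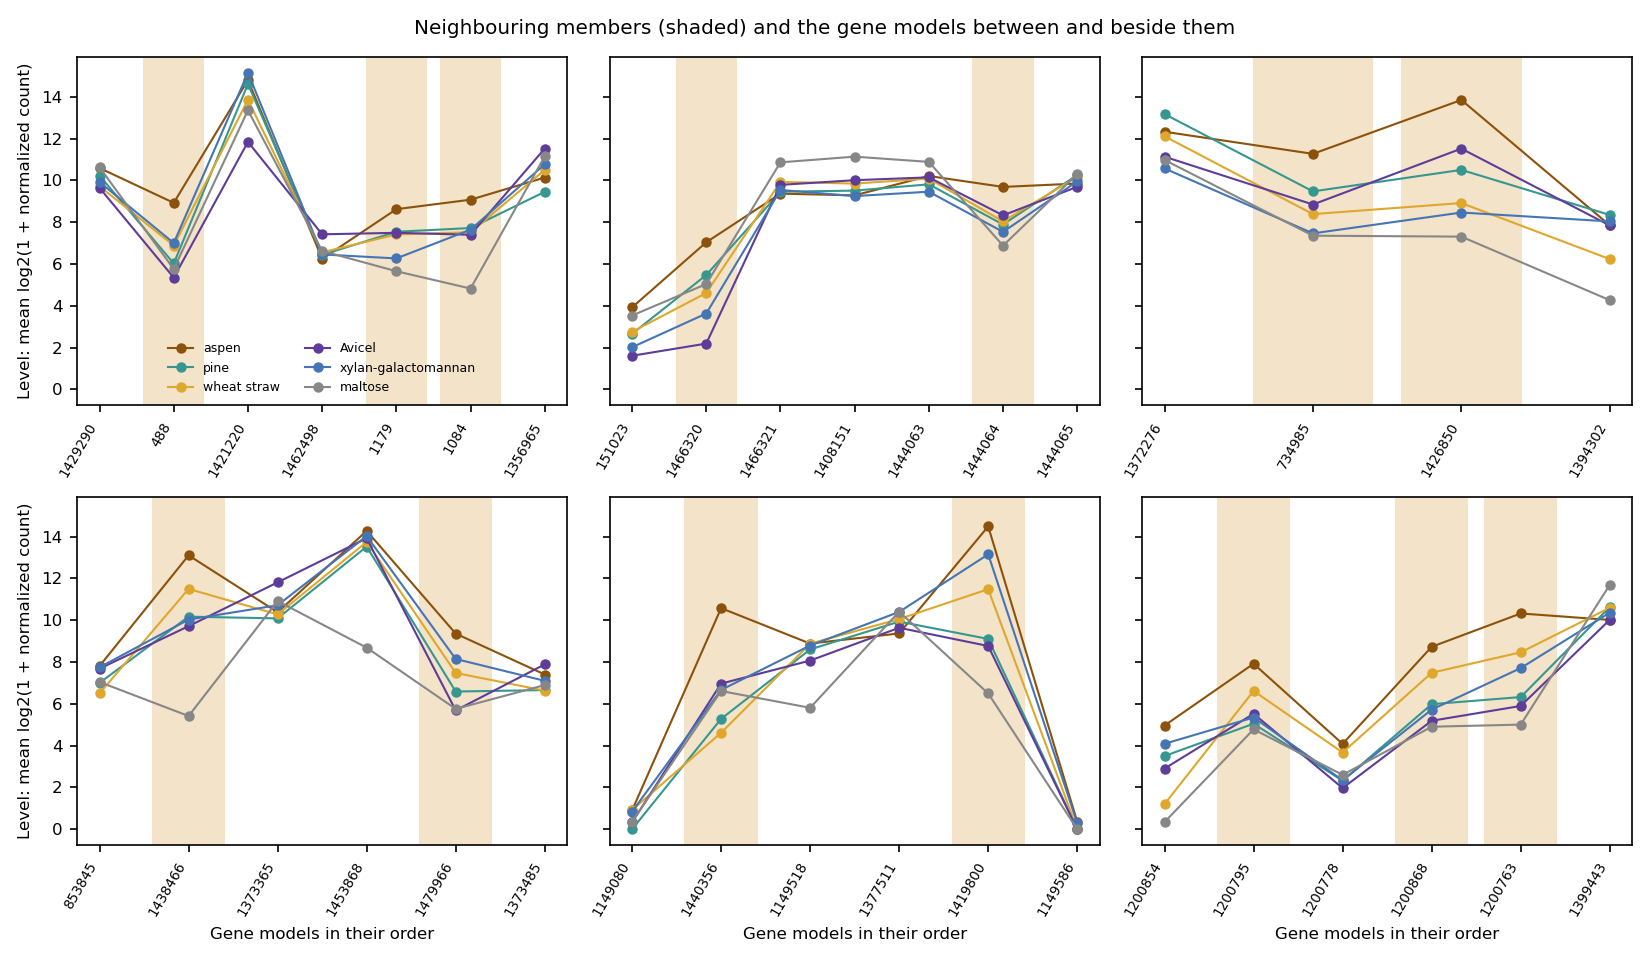
Each panel shows a group of neighbouring members (shaded) with the gene models between and directly beside them, in gene order on the horizontal axis, and the level on each carbon source on the vertical axis (mean log2(1 + normalized count), 3 libraries). Aspen is the highest line inside the shaded columns, and at the 10 gene models between them it is highest at 1200778, 1453868 and 1149518, lowest at 1462498, 1466321 and 1377511 and among the other lines at the rest.

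The study's own lists of genes regulated on plant substrates were chosen on these libraries, without those of xylan-galactomannan. A whole group of genes had to average above 12 log2 on a plant substrate but not on maltose or Avicel. Its genes then had to rise over maltose by DESeq2, with a log2 fold change above 1 and adjusted p below 0.05. An overlap with lists drawn from the same libraries is no independent evidence. Of the 289 genes in the lists of this strain, 12 are among the 58, and 46 of the 58 are in none of the lists. The limit of the lists lies well above the level of 6 used here, and 19 of the 58 had an aspen level of at least 12. Of the 29 genes that the lists mark as unique to aspen, 7 are among the 58, 4 were set aside, and the other 18 had a gap of at most 0.935, with another carbon source above aspen in 12 of them, of which xylan-galactomannan was the highest in 5. In the paper's summary of its other strains, unique means a group of genes highly transcribed on a single plant material. That is a different measure from the gap of a single gene. Node 9 of the study's self-organizing map, a grid that groups genes of like transcript profile, holds 9 listed genes, of which 5 are among the 58 and 4 were set aside. Node 10 holds 2 listed genes, both among the 58, and node 52 holds 15, none of them among the 58. Of the 7 listed genes with an auxiliary activity family, which covers lignin peroxidases and other redox enzymes, 0 are among the 58 and 3 were set aside, and of the 22 with a carbohydrate-active family 1 is among the 58, with 2 set aside.

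Spread between replicates differed among the carbon sources. The 3 libraries differed by more than 1 log2 in 9 of the 58 genes on aspen, 29 on pine, 21 on wheat straw, 23 on Avicel, 11 on xylan-galactomannan and 23 on maltose. Among all genes with an aspen level of at least 6, the shares that did so were 7.59% on aspen, 20.6% on pine, 7.20% on wheat straw, 14.7% on Avicel, 17.99% on xylan-galactomannan and 7.10% on maltose. On wheat straw the first library was the highest in 17 of the 21 genes, and on Avicel the second was the lowest in 17 of the 23. Which library was highest or lowest was not counted over all genes.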

How the data were processed

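After quality filtering at the sequencing centre, the authors mapped reads with TopHat2, used HTSeq to count them per gene and deposited these raw counts for 12690 gene models. The authors also deposited RPKM, counts divided by mappable length and library total, which were checked and not used further. Of 36 value columns, 0 matched no sample. Members and lists were chosen with earlier results of these data known.

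Size factors and levels were computed in Python 3.11.15. Tests used edgeR 4.0.16 (limma 3.58.1, R 4.3.3) with TMM factors, filterByExpr, glmQLFTest and Benjamini-Hochberg adjustment, in a fit of 15 libraries, or of 18 for xylan-galactomannan. SE is the log2 fold change divided by the square root of F. The procedure was tested on simulated data. Between replicates, chi-square per degree of freedom was 23.5 to 364, so no library was a duplicate. Deviations of same-numbered libraries correlated at -0.205 to 0.437, with all 3 over 0.1 in 0 of 15 pairs of groups, and replicate numbers were not used as pairs.

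Genes named were the 15 highest levels, the 15 widest gaps, those with a function, the 2 largest rises and falls per comparison, those at the limits and neighbours, with other members added after their values were seen. Alternatives were RLE factors, DESeq2 1.42.0, no filter on low counts, a replicate block, only the groups compared, Bonferroni adjustment, other limits and scalings for membership, and each library left out. For the tests, only libraries of the groups compared were left out, so the aspen libraries stayed in. Sequences were not used here.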

Additional observations from a re-analysis of the deposited data

How the results depend on the processing

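With a gap of at least 1.5 in place of 1, 26 genes met the limits, and in all 26 the 3 aspen libraries lay above the other 15. The limits use the same values, so nothing is read from such separation, here or with libraries left out. With an aspen level of at least 8, TMM-scaled log2 CPM or the log2 of the mean normalized count, 50, 58 and 60 genes met them, and 57 of the TMM set and 53 of the last were shared with the 58. RPKM levels, divided by length, have no equal of the level limit and were not run. Leaving out each library in turn gave 54 to 72 genes by the limits, the most without aspen replicate 3, and 49 to 62 with all aspen libraries above the rest.

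Bonferroni adjustment, stricter by construction, left 22 genes higher and 1 lower on pine against maltose, 22 and 0 on wheat straw against maltose, 12 and 1 on Avicel against maltose, 8 and 0 on pine against Avicel, 15 and 1 on wheat straw against Avicel, 1 and 4 on pine against wheat straw, and 0 lower on xylan-galactomannan against maltose. For the last count, which was 1, the replicate block, DESeq2 and a fit of only the groups compared gave 2, and leaving out a library gave 0 to 1. The block, in which replicate numbers are taken as pairs, changed no other count of calls by over 1.5 times. On wheat straw against maltose, leaving out a library gave 3 to 5 genes lower, the fewest without wheat straw replicate 2. Of 244 calls, 201 were kept in every alternative other than Bonferroni. Direction was followed for the 27 largest rises and falls named per comparison, and turned in 0 of their 324 alternative values. Bonferroni adjustment cannot change a direction, and changes picked as the largest were unlikely to turn, so nothing further is read from this 0. Depth limits folds of 1437632, 1466320 and 685757, whose lowest groups held 6, 18 and 2 raw counts in all.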
